A study of Mus musculus with 56 samples.

Results

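Among 27 nucleus accumbens arrays of inbred mice, those of BALB/cByJ, CE/J, NON/LtJ and WSB/EiJ were low in genes of striatal projection neurons, and these 4 arrays of the 56 in the series are described here. They were chosen by their accumbens values, so every accumbens difference between them and the arrays of the other 23 strains is a description without a test. Each array held RNA pooled from 3 male mice of 1 strain, aged 8 to 10 weeks. Nucleus accumbens was punched from the brain slice next to the one that gave the prefrontal cortex, and the same 27 strains had a cortex array each, 4 of the strains named above and 23 of the others. MRL/MpJ and NZO/HILtJ had cortex arrays alone and were left out of the comparisons. There was 1 pool per strain and region, so n counts strains, and differences between pools and between dissected pieces are part of the spread.

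The nucleus accumbens is the ventral part of the striatum, and most of its neurons are spiny projection neurons, GABA neurons that carry dopamine receptors and high levels of signalling proteins such as DARPP-32. The direct pathway neurons carry the D1 receptor with substance P and dynorphin, and the indirect pathway neurons carry the D2 receptor with enkephalin. Septum, ventral pallidum and the cholinergic basal forebrain lie against the accumbens on its medial and ventral sides, and the anterior commissure, a white matter tract, runs through it. Neurons of septum and midline use the transcription factor Zic1, Lhx6 marks neurons that leave the medial ganglionic eminence, among them many pallidal neurons and interneurons, and glutamatergic neurons of subcortical regions load their vesicles with the transporter encoded by Slc17a6.

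Levels are log2 of the probe set intensity. Of probe sets that exceeded log2 5 on 4 or more of the 54 paired arrays, each gene's brightest was used, which left 11386 features, and values under log2 5 were set to 5 before differences were taken. A feature is called raised where each of the 4 arrays was at least 1 log2 unit (2-fold) above the median of the 23 others, and lowered where each was at least 1 unit below. By this criterion 89 features were raised (0.782% of all features) and 60 were lowered (0.527%). Of these, 83 raised and 40 lowered features carried 1 gene name. All 4 arrays lay outside the whole range of the 23 for 72 of the 89 raised and 51 of the 60 lowered features, and over all features 460 (4.04%) lay wholly above the 23 and 502 (4.41%) wholly below. Because the 4 arrays were selected for standing apart, nothing is read from these shares. Without the 4 arrays, 70 of the 11386 features would not have passed the filter on dim values, among them 1 of the 89 raised and 0 of the 60 lowered. WSB/EiJ limited the counts: without it 165 features were raised and 146 lowered.

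The 4 arrays did not stand apart to the same degree. BALB/cByJ had 680 features at least 1 log2 unit above the median of the others and 791 at least 1 unit below. NON/LtJ had 322 and 286, CE/J 268 and 246, and WSB/EiJ 140 and 186. The other 23 accumbens arrays had 16 to 89 features above (median 47) and 17 to 92 below (median 40), so every one of the 4 had more than any of the 23. In the cortex arrays of the same 4 strains the counts were 46 to 63 above and 31 to 88 below, inside the range of the other cortex arrays. Most of what stood out was in 1 array: of 851 features at least 1 unit above in any of the 4, 556 were so in exactly 1 array, and of 928 below, 581.

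**Figure D1:**
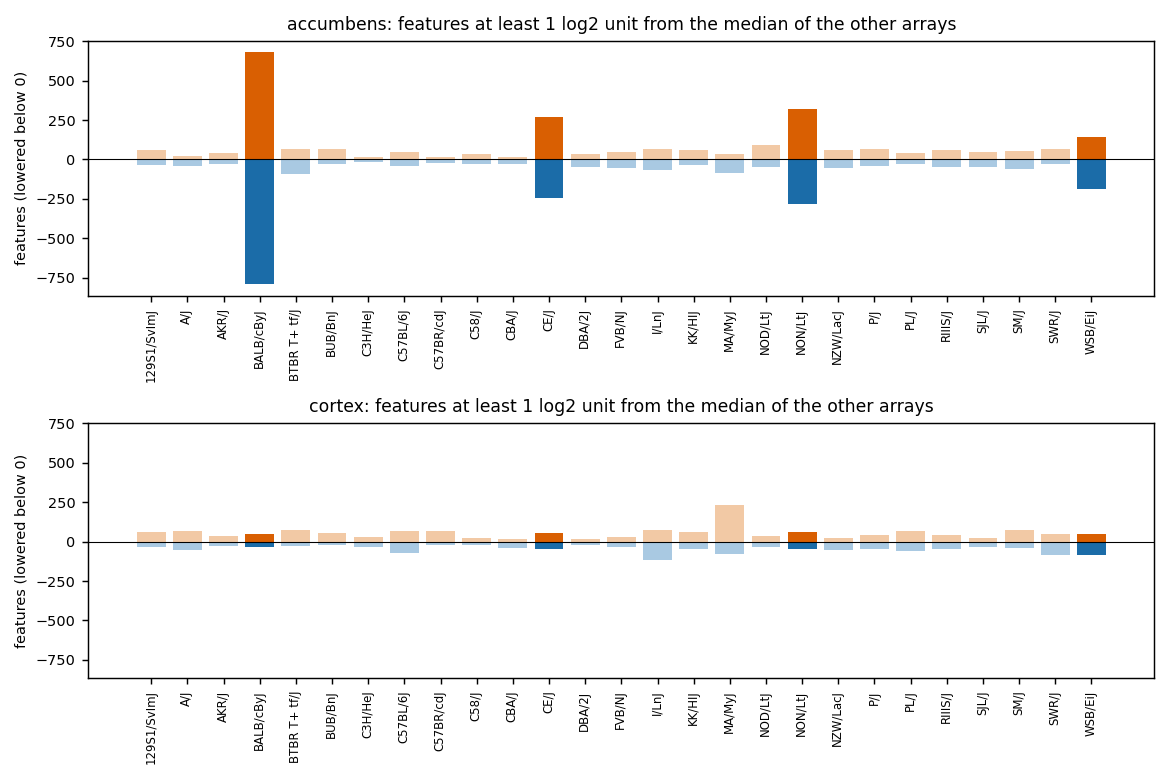
Number of features at least 1 log2 unit above (upward bars) or below (downward bars) the median of the other strains, for each of 27 accumbens arrays (top) and 27 cortex arrays (bottom), with the 4 strains in dark colours. BALB/cByJ has 680 above and 791 below in accumbens, and in cortex the 4 strains have no more than 63 above and 88 below.

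Within the shared features BALB/cByJ was most often the farthest from the other strains, and the order of the rest varied. BALB/cByJ was the lowest of the 4 in 54 of 60 lowered features and the highest in 75 of 89 raised ones. WSB/EiJ was nearest to the other strains in 30 lowered and 61 raised ones, CE/J in 16 and 16, and NON/LtJ in 13 and 12. The median raised feature was 4.83-fold above the other strains in BALB/cByJ, 3.29-fold in CE/J, 3.09-fold in NON/LtJ and 2.47-fold in WSB/EiJ. The median lowered feature was 4.72-fold, 2.49-fold, 2.54-fold and 2.34-fold below.

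Spiny projection neuron genes were the group furthest down. Over the 37 measured genes of the 3 spiny lists, the mean level was 7.17 in BALB/cByJ, 8.04 in NON/LtJ, 8.31 in CE/J and 8.51 in WSB/EiJ. The 23 others ran from 8.91 to 9.43 (median 9.23), and the cortex arrays of the 4 strains from 6.20 to 6.26. All 4 thus lay between cortex and the lowest other accumbens array, that of I/LnJ at 8.91, followed by NZW/LacJ at 8.93. Of the 37 genes 10 were lowered, 0 were raised, and 23 had all 4 arrays below every one of the 23, with a median difference of -1.16 log2 units beside 0 over all features. Fewer spiny neurons and less RNA of these genes per neuron cannot be told apart in such bulk RNA.

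Of 23 genes used by spiny neurons of both pathways, 9 were lowered, 21 were lower in all 4 arrays at any size, and the median difference was -1.23. Over all features 23.1% were lower in all 4 at any size and 21.9% were higher, shares that apply to each such count given for a list. The 0.782% raised and 0.527% lowered over all features apply in the same way to each list count of raised or lowered genes. Rgs9, a regulator that ends G protein signals in striatal neurons, read 6.59 in BALB/cByJ, 8.85 in CE/J, 7.94 in NON/LtJ and 8.84 in WSB/EiJ, and 9.44 to 10.46 (median 10.06) in the others. Scn4b, the beta4 subunit of the sodium channel, read 6.35, 8.39, 7.78 and 8.56 in the same order, against 8.83 to 11.07 (median 10.16), a median difference of 4.20-fold. For neither gene did the 4 arrays overlap the 23, and in BALB/cByJ Scn4b was at its cortex level of 6.35. Foxp1, a transcription factor of striatal and cortical neurons, read 5.27, 7.42, 7.12 and 7.89, against 8.34 to 10.02 (median 9.18). BALB/cByJ was 15.1-fold below that median and lay under its own cortex value of 7.52.

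The retinoic acid receptor gene Rarb read 4.61, 7.19, 7.09 and 7.89 (others 8.31 to 9.47), so that in BALB/cByJ it was under log2 5 and the 16.2-fold difference there is a lower bound. Rasd2, which encodes the striatal small GTPase Rhes, read 7.47, 8.54, 8.05 and 8.30 (others 9.03 to 10.98). Pde1b, a calmodulin-dependent phosphodiesterase, read 8.42, 10.09, 9.56 and 10.12 (others 10.69 to 11.40). In all 3 genes the 4 arrays lay below the whole range of the others. Actn2, the actin crosslinker alpha-actinin, Lrrc10b and Syndig1l were lowered as well, by 3.88-fold, 5.60-fold and 3.17-fold at the median; Actn2 and Lrrc10b were under log2 5 in BALB/cByJ, at 3.77 and 2.71. Rgs9, Rarb and Pde1b were picked for description after their values were seen.

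Both output pathways were low, with fewer genes past 1 log2 unit in all 4. Of 8 direct pathway genes 1 was lowered (Slc35d3, a nucleotide sugar transporter family member, 3.43-fold) and 6 were lower in all 4 arrays, with a median of -0.84. Of 6 indirect pathway genes 0 were lowered and 4 were lower in all 4, with a median of -1.20. Drd1 read 7.57 in BALB/cByJ, 9.57 in CE/J, 9.58 in NON/LtJ and 10.24 in WSB/EiJ, and 10.53 to 11.27 (median 10.91) in the others. Drd2 read 6.73, 7.16, 7.07 and 7.80, against 8.09 to 9.16 (median 8.71). Neither receptor overlapped with the other strains, and WSB/EiJ stayed short of the criterion, 1.59-fold down for Drd1 and 1.88-fold for Drd2. Penk, the enkephalin precursor, read 10.85, 11.99, 11.76 and 12.22 (others 12.50 to 13.05), and Tac1, the substance P precursor, 9.29, 11.86, 10.77 and 11.80 (others 11.82 to 12.77). CE/J lay inside the others' range for Tac1.

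Some genes of the spiny lists did not go down. Dlk1, which encodes a Notch-related membrane protein, read 9.20, 9.26, 9.22 and 9.11, near the middle of the others (7.76 to 9.65, median 8.96), although it was under log2 5 in the cortex arrays of the 4 strains (2.33 to 2.57). Sfxn1, a mitochondrial serine transporter, was above the others' median in all 4 (8.88 to 9.32, others 8.38 to 9.04), as was the kainate receptor gene Grik3 (7.95 to 8.02, others 7.02 to 7.96). Ptprm, a receptor phosphatase, read 6.39 to 6.65, inside 6.15 to 6.85, and Isl1, a transcription factor of direct pathway neurons, 6.63 to 7.39 (others 6.76 to 7.66).

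**Figure D2:**
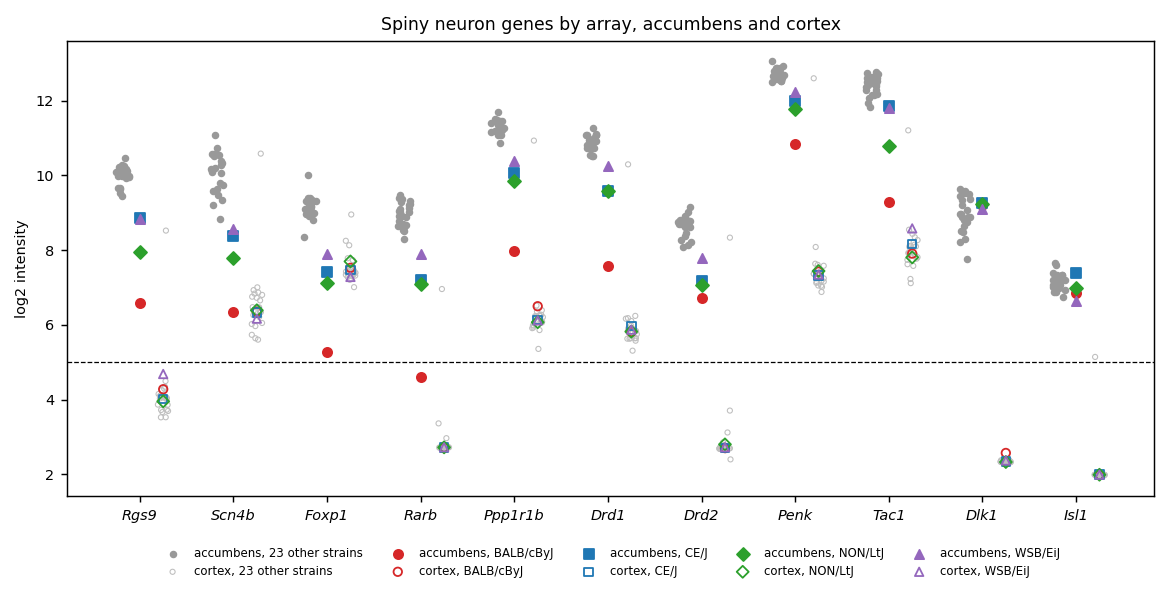
Log2 intensity of 11 genes of spiny neurons in accumbens (filled) and cortex (open), with the 4 strains in colour, 23 other strains in grey and the dashed line at log2 5. In Rgs9 the 4 accumbens arrays sit between 6.59 and 8.85, below 9.44 to 10.46 in the others, whereas Dlk1 lies inside the others' range.

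Among the 15 lowered genes with the largest smallest-of-4 difference, 9 lay outside the lists, and 20 of the 60 lowered features had no single gene name. Gabrd, the delta subunit of GABA-A receptors, read 3.76 in BALB/cByJ, 6.59 in CE/J, 6.21 in NON/LtJ and 6.79 in WSB/EiJ, against 7.48 to 8.59 (median 8.23). Npas2, a transcription factor of the circadian clock family, read 4.71, 5.94, 6.13 and 6.73, against 7.15 to 8.52 (median 8.11). Grasp, a scaffold protein of glutamate receptors, read 3.02, 6.41, 6.33 and 6.38, against 7.17 to 8.40 (median 7.87). All 3 genes were under log2 5 in BALB/cByJ alone and had no overlap with the 23. The kinase gene Dclk3 was 2.83-fold down at the median, Ido1, which encodes a tryptophan-degrading enzyme, 3.76-fold, and Pcp4l1 3.69-fold. The scaffold gene Iqgap2 was down by at least 2.63-fold, since it was under log2 5 in BALB/cByJ (3.87) and CE/J (4.52), and NON/LtJ (5.28) and WSB/EiJ (5.19) overlapped with the lowest of the others at 5.15. Serpina9, of the serpin family, and Zfp40, a zinc finger gene, lay under log2 5 in all 4 arrays, and both overlapped with the others, which reached down to 2.21 and 4.87.

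The 3 genes given as markers of neighbouring tissue were all raised. Zic1 read 9.72 in BALB/cByJ, 9.26 in CE/J, 8.80 in NON/LtJ and 8.57 in WSB/EiJ, and 6.90 to 8.59 (median 7.47) in the others, so that WSB/EiJ overlapped. Lhx6 read 8.82, 7.57, 7.60 and 7.71, against 5.39 to 7.19 (median 6.01), with no overlap. Slc17a6 read 8.66, 7.62, 6.57 and 6.89, against 2.86 to 6.32, with no overlap and, since the median of 3.78 was under log2 5, a median difference of at least 4.78-fold. Further kept probe sets gave the same picture: the second one of Zic1 read 7.94 to 8.64 (others 5.83 to 7.92) and the second one of Slc17a6 5.76 to 7.13 (others 2.66 to 5.57), with no overlap in either. In cortex, Zic1 of BALB/cByJ was also high at 8.54, against 7.39 to 7.52 in the other 3 strains and 6.75 to 8.77 in the 23.

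Genes of the lists around these markers were raised in part. Lhx8, a transcription factor of cholinergic and other ventral forebrain neurons, read 9.64, 8.27, 8.75 and 8.46, against 5.05 to 7.96 (median 6.40), and 3.03 to 3.06 in the cortex arrays of the 4 strains. It was the only kept gene of 8 listed for cholinergic neurons. The defining genes Chat, Slc5a7 and Slc18a3 were not kept, and their probe sets were under log2 5 on all 54 paired arrays. Chat, for one, read at most 2.08 in the 4 arrays, 2.09 in the 23 and 1.95 in cortex. These probe sets thus do not tell the 4 arrays from the 23, and of this list only Lhx8 was bright enough to compare over all 4. Ngfr and Gbx2 passed log2 5 in BALB/cByJ alone, at 5.11 and 5.03, and Gbx1 likewise at 5.75, against at most 4.78, 3.87 and 4.27 in the 23.

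Of 7 kept genes of the pallidum and of neurons from the medial ganglionic eminence, Lhx6 and Pvalb were raised, 4 were higher in all 4 arrays and the median difference was 0.58. Of the 4, Elfn1 (5.47 to 6.66, others up to 5.03), which encodes a synaptic adhesion protein, passed the filter only through these arrays, so its place in the count was set by it. Pvalb, the calcium buffer parvalbumin, read 7.02, 6.29, 6.06 and 6.15, and the others spread from 2.51 to 7.61. The transcription factor gene Sox6 read 5.98 to 6.31, just above the others (4.56 to 5.92). Sst, the somatostatin gene of interneurons, lay inside the others' range in 3 arrays and just under it in BALB/cByJ (9.17, others 9.24 to 10.27), and Maf read 6.51 to 6.91 (others 6.51 to 7.49). Npas1, Nkx2-1 and Kcng4 were not kept.

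For septum and ventral midline forebrain, 3 of 10 genes on the array were kept and 1, Zic1, was raised, with a list median of 0.63. The channel gene Trpc4 read 5.43 to 5.57, above 3.59 to 4.15 in the others. Nr2f2, a nuclear receptor gene, read 5.88 in BALB/cByJ, 7.41 in CE/J, 5.38 in NON/LtJ and 4.32 in WSB/EiJ, against 3.60 to 4.53 in the others, so that CE/J was the highest and WSB/EiJ lay with the other strains. Zic2, Zic4, Zic5, Sln, Crhr2, Esr1 and Avpr1a were not kept, which leaves few genes to read for septum.

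Subcortical glutamatergic genes gave 2 raised of 5 kept, Slc17a6 and Calb2, with a list median of 0.33. Calb2, the calcium binding protein calretinin, read 9.12 in BALB/cByJ, 8.83 in CE/J and 7.97 in NON/LtJ, against 3.78 to 6.79 (median 4.96) in the others. WSB/EiJ was at least 4.01-fold above that median, and the median of the 4 differences was at least 10.6-fold. The Wnt effector gene Tcf7l2 read 6.36 in BALB/cByJ and 5.24 to 5.39 in the other 3 arrays, against 3.43 to 5.41, and passed the filter only through these arrays. Rgs16 passed log2 5 in 3 arrays, at 5.02 to 5.34, and in none of the 23, whose highest was 4.94. Plekhg1 passed it in NON/LtJ, at 5.64.

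Of 4 kept genes for hypothalamic and preoptic peptides and secretory proteins, the peptide gene Crh was raised, at 9.70, 9.31, 10.26 and 9.23 against 6.87 to 8.97 (median 8.22). Of these kept genes 3 were higher and 1 lower in all 4 arrays, with a list median of 0.75. The lower one was Vgf, at 9.69, 9.54, 9.54 and 9.66 (others 9.28 to 10.40, median 9.81). Ecel1, a membrane endopeptidase, was highest in BALB/cByJ (7.95) and CE/J (7.50) and lower in NON/LtJ (6.79) and WSB/EiJ (6.35), against 5.26 to 6.76. Of the listed genes too dim to be kept, Ghrh, Trh, Avp, Hcrt, Pomc, Sim1 and Peg10 were under log2 5 in all 4 arrays. Pmch, Gal and Oxt passed log2 5 in some of the 4. Pmch, the precursor of melanin-concentrating hormone, read 7.73 in BALB/cByJ and 2.78 to 3.43 in the other 3, against 2.77 to 3.01 in the 23. Gal, the galanin precursor, read 6.97 in BALB/cByJ and 6.93 in CE/J, against at most 4.31 in the 23. Oxt, the oxytocin precursor, read 5.88 in CE/J and 3.57 in BALB/cByJ, against 1.73 to 2.02. These peptides set BALB/cByJ and CE/J apart: Pmch marked BALB/cByJ, Oxt CE/J, and Gal both. NON/LtJ and WSB/EiJ were under log2 5 for each of them.

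**Figure D3:**
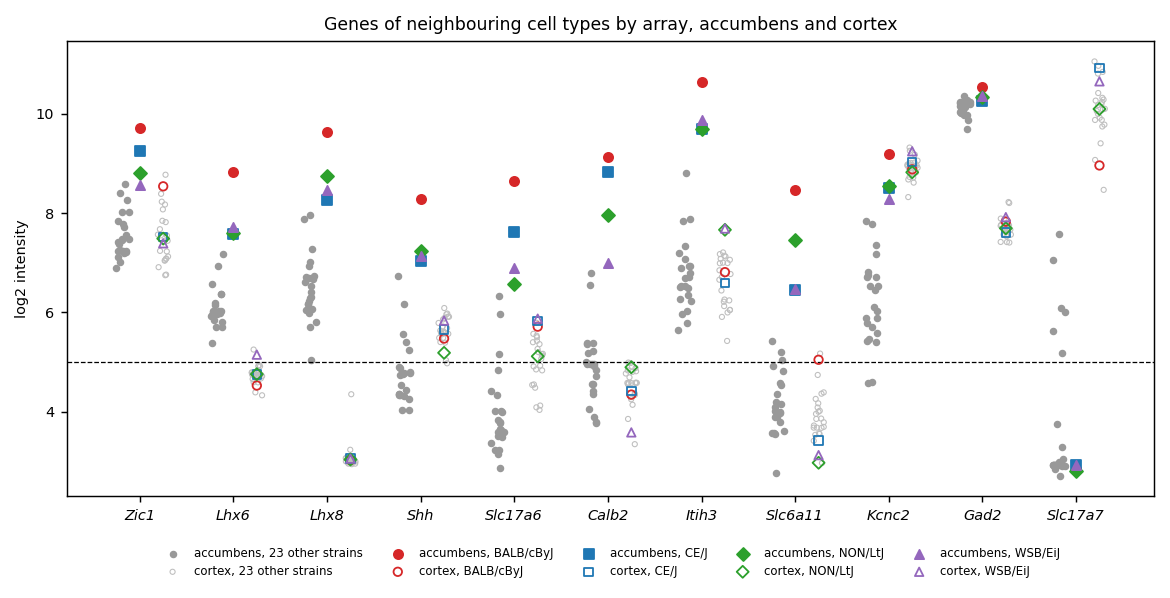
Log2 intensity of 11 genes of neighbouring and other cell types in accumbens (filled) and cortex (open), marked as in the plot of spiny neuron genes. Lhx6, Lhx8, Shh, Slc17a6, Calb2, Itih3, Slc6a11 and Kcnc2 lie above all 23 other accumbens arrays, Gad2 reads 10.25 to 10.55 (others 9.70 to 10.36), and Slc17a7, of cortical excitatory neurons, is under log2 5 in all 4.

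The 15 raised genes with the largest smallest-of-4 difference were led by Itih3, Kcnc2 and Shh. Itih3, a hyaluronan-binding protein listed for astrocytes, read 10.64 in BALB/cByJ, 9.71 in CE/J, 9.70 in NON/LtJ and 9.88 in WSB/EiJ, against 5.64 to 8.81 (median 6.69), a median difference of 8.62-fold. Kcnc2, a fast potassium channel, read 9.19, 8.50, 8.55 and 8.28, against 4.58 to 7.84 (median 6.12). The signalling ligand gene Shh read 8.28, 7.04, 7.24 and 7.14, against 4.03 to 6.73, a median difference of at least 4.56-fold. None of the 3 overlapped with the other strains. In cortex Kcnc2 was as bright (8.82 to 9.25) as in these accumbens arrays, and Shh was lower (5.19 to 5.84).

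Sparc, a secreted matrix protein of glia and vessels, read 12.02, 11.14, 11.35 and 11.05 (others 8.68 to 10.29). Resp18, a protein of secretory granules, read 11.24, 10.94, 10.57 and 9.42 (others 6.60 to 8.66). Baiap3, which acts in dense-core vesicle release, read 9.77, 9.83, 9.82 and 8.85 (others 5.67 to 8.58), and was under log2 5 in all 4 cortex arrays (2.52 to 2.57). WSB/EiJ was the lowest in all 3 genes and still above the others. Elavl4, a neuronal RNA-binding protein, was raised 4.49-fold at the median, Gng2, a G protein gamma subunit, 4.84-fold, Vamp1, a synaptic vesicle protein, 4.30-fold, and Pafah1b3, a subunit of an acetylhydrolase, 3.83-fold. AW551984 (7.24-fold), Tmem255a (3.83-fold) and Nrip3 (3.53-fold) completed the leading 15.

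Where a raised gene had another kept probe set (29 genes), the other probe sets pointed the same way on all 4 arrays in 19 and met the criterion in 13, and for lowered genes this held in 17 and 8 of 18.

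Raised features were also set against the same strain's cortex. The matching shares over all features are not given here, so nothing is read from these counts. Of the 89, 53 were higher in accumbens than in cortex in all 4 strains, 10 were lower in all 4, and 26 were neither. For 40 the 4 accumbens arrays were above each of the 27 cortex arrays, and 8 were under log2 5 on all of those. The median of the 23 accumbens arrays was under log2 5 for 19 of the 89.

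Of 14 astrocyte genes 3 were raised (Itih3, Slc6a11 and Agt), 8 were higher in all 4 arrays and 1 was lower in all 4, with a median difference of 0.65. Slc6a11, a GABA transporter, read 8.47, 6.45, 7.46 and 6.47 (others 2.77 to 5.42), and Agt, the angiotensinogen gene, 7.25, 6.90, 7.66 and 6.12 (others 3.00 to 6.35). The mean level of the list was 8.56 to 9.16 in the 4 arrays and 7.76 to 8.31 in the 23, with no overlap. Gfap, Aqp4, Aldh1l1 and Sox9 were not higher in all 4. Gfap (-0.07 log2 units) and Aqp4 (-0.05) were just below the others' median in WSB/EiJ, Aldh1l1 (-0.04) in CE/J and Sox9 (-0.02) in NON/LtJ. In the remaining arrays each was above it. The gap junction gene Gjb6 read 7.92 to 8.78 (others 6.05 to 8.21), and Slc1a3, a glutamate transporter, 10.42 to 11.22 (others 9.78 to 10.51). S100b (9.25 to 9.66, others 8.36 to 9.45), Fgfr3 (8.90 to 9.59, others 8.36 to 9.11) and the gap junction gene Gja1 (11.04 to 11.68, others 10.53 to 11.45) were also above the others' median in all 4, and overlapped with the others. The second glutamate transporter, Slc1a2, was below the others' median in all 4 (11.12 to 11.83, others 11.42 to 12.54, median 12.01), and Glul, glutamine synthetase, lay inside their range (11.81 to 12.05, others 11.47 to 12.22). The part of astrocytes in the raised features was not tested.

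White matter genes were not shared by the 4. Of 15 oligodendrocyte genes 0 were raised and 0 lowered, and the list median was 0.57 in BALB/cByJ, -0.10 in CE/J, 1.14 in NON/LtJ and -0.48 in WSB/EiJ. The mean level was 9.19 in BALB/cByJ, 8.50 in CE/J, 9.66 in NON/LtJ and 8.07 in WSB/EiJ, and NON/LtJ alone lay above the others (7.44 to 9.30). Mobp, a myelin protein gene, read 11.15, 10.67, 11.91 and 10.59 (others 9.93 to 11.85), and the lineage factor gene Olig2 7.25, 6.55, 7.36 and 6.17 (others 5.54 to 7.18). White matter genes were thus above the other strains in NON/LtJ alone by their mean level, and CE/J and WSB/EiJ had list medians below 0. Of 3 kept precursor genes 0 were raised, with Pdgfra at 7.90 to 8.43 (others 7.28 to 8.07).

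Of 3 genes common to GABA neurons 0 were raised or lowered, 2 were higher in all 4 arrays, and the median difference was 0.20. Their mean level was 11.26 in BALB/cByJ, 10.99 in CE/J, 11.06 in NON/LtJ and 11.08 in WSB/EiJ, against 10.64 to 11.00 in the others, so that CE/J alone lay inside the others' range. Gad1, a GABA-synthesising enzyme, read 12.52, 12.33, 12.55 and 12.53 (others 12.15 to 12.54), and Gad2, the second such enzyme, 10.55, 10.25, 10.35 and 10.37 (others 9.70 to 10.36). The vesicular GABA transporter gene Slc32a1 read 10.70, 10.39, 10.27 and 10.33 (others 9.47 to 10.36).

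Other cell types gave no raised or lowered gene: 0 of 16 for cortical excitatory neurons, 0 of 5 for local interneurons, 0 of 7 for neuroblasts, 0 of 4 for ependyma and choroid plexus, 0 of 10 for vessels and meninges, and 0 of 9 for microglia. Over all features 0.782% were raised and 0.527% lowered, so 0 is near the share for lists of this size, and nothing is read from it. Cortical genes such as Slc17a7, Neurod6 and Fezf2 had medians under log2 5 in the 23, so the floor left no room to call them lowered. Slc17a7, the vesicular glutamate transporter of cortical neurons, was under log2 5 in all 4 arrays and reached 7.57 in the 23. Mef2c and Lamp5, on the cortical list and also bright in accumbens, were below all 23: Mef2c read 6.73, 8.98, 8.51 and 8.86 (others 9.40 to 10.58), and Lamp5 6.13, 8.59, 8.49 and 8.58 (others 8.69 to 9.78). Of the 16 cortical genes 2 others were above the others' median in all 4: Rasgrf2, a Ras exchange factor, read 8.55, 8.68, 7.93 and 7.73 (others 5.13 to 8.28), and C1ql3, a secreted synaptic protein, 5.97, 6.48, 6.39 and 5.25 (others 3.93 to 6.56). Dlx1, a transcription factor of GABA neuron development, was highest in CE/J at 7.26, against 6.70, 5.84 and 5.34 in the other 3 and at most 5.76 in the 23. Ttr, the choroid plexus transthyretin gene, read 6.75 in CE/J and 6.12 in WSB/EiJ, inside the others' range of 3.33 to 7.64.

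**Figure D4:**
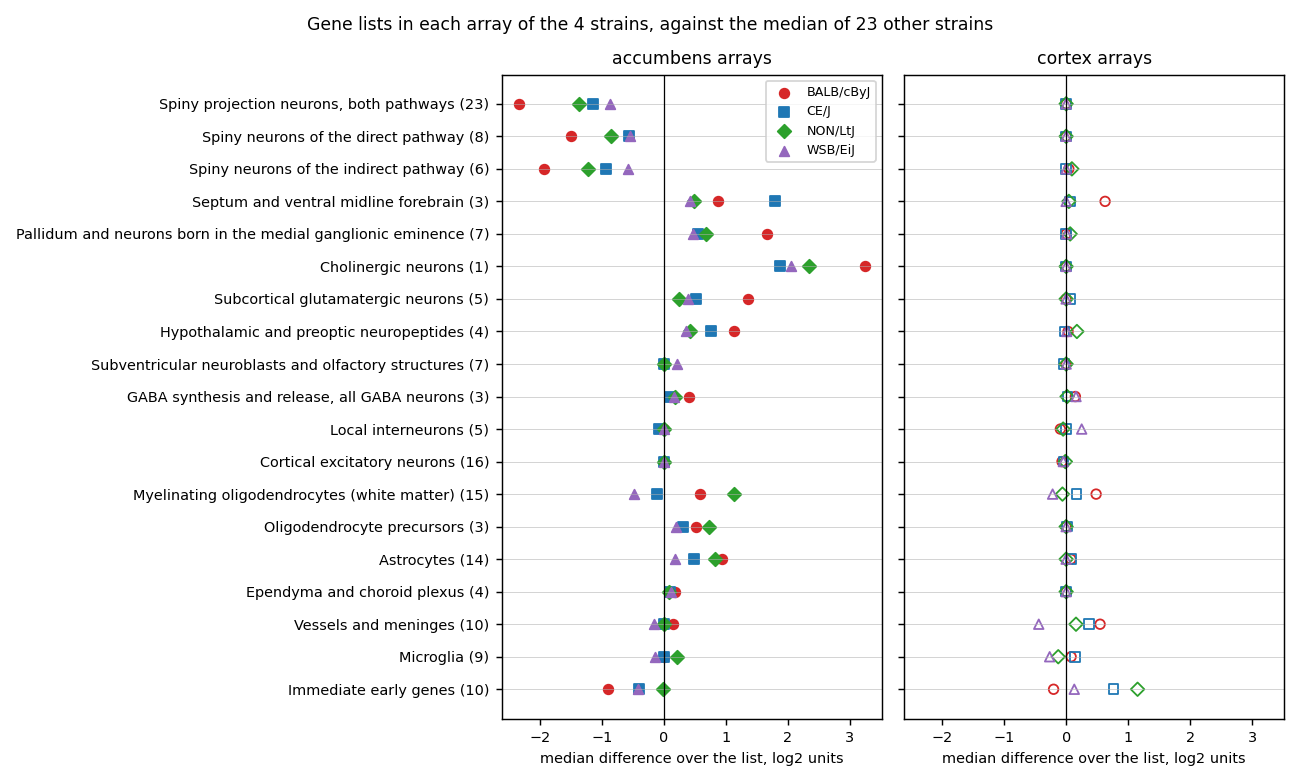
Median log2 difference of each gene list from the other 23 strains, by strain, in accumbens (left, filled) and cortex (right, open), with the number of measured genes in brackets. The 3 spiny lists lie below 0 in all 4 accumbens arrays, and the oligodendrocyte list lies on both sides of 0 (-0.48 to 1.14). In cortex the spiny lists lie near 0. Many spiny genes, such as Rgs9, Rarb and Drd2, were under the floor applied to dim values there, which sets their difference to 0. The cortex medians of these lists therefore say little about strain differences.

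Of 10 immediate early genes, which are induced by recent neuronal activity, 0 met the criterion and 5 were lower in all 4 accumbens arrays, with a list median of -0.43 in accumbens and 0.46 in cortex. By array the accumbens median was -0.89 in BALB/cByJ, -0.40 in CE/J, -0.02 in NON/LtJ and -0.41 in WSB/EiJ. In cortex it was -0.20, 0.76, 1.15 and 0.13. By this list median BALB/cByJ was below the others' median in both regions, and NON/LtJ was near it in accumbens. The mean level of the list in the BALB/cByJ cortex array, 7.92, lay inside the range of the 23 (7.25 to 9.41). Egr1, an activity-induced transcription factor, read 8.58, 9.45, 9.92 and 9.30 (others 9.66 to 11.03). In cortex it read 11.56, 11.87, 12.09 and 11.74 (others 10.72 to 12.33), 0.44 log2 units above the other strains (SE 0.20, limma adjusted p = 0.798). Fos, another such factor, read 7.37, 8.10, 9.18 and 7.77 in accumbens, above the others' median in 3 arrays (others 5.36 to 8.94, median 7.61), and Btg2 had a median difference of 0.22 there.

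The cortex arrays had no part in choosing the strains and were tested. With the same criterion 0 features were raised (0%) and 0 lowered (0%), and for 0 did the 4 strains lie wholly above or below the 23. With limma 0 of 11386 features were higher (0%) and 0 lower (0%) in the 4 strains at an adjusted p under 0.05, the smallest being 0.347, and 684 had an unadjusted p under 0.05. Leaving out 1 of the 4 gave 0 to 2 calls: 2 without BALB/cByJ, 1 without NON/LtJ, 1 without WSB/EiJ and 0 without CE/J. The MA/MyJ cortex array stood apart among the 23, with a spiny mean of 8.38 where the 4 strains had at most 6.26, and without it limma made 0 calls, with 782 unadjusted.

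Of the 89 raised, 5 (5.62%) had an unadjusted p under 0.05 in cortex and of the 60 lowered 4 (6.67%), beside 6.01% of all features. Their cortex differences ran from -0.41 to 0.64 (median 0.04) and from -1.21 to 0.51 (median -0.13). The largest of the raised was Slc17a6, at 0.64 log2 units (SE 0.25, limma adjusted p = 0.78). The lowest of the lowered was Zfp40, at -1.21 (SE 0.35, limma adjusted p = 0.696). Zfp40 was under log2 5 in the 4 cortex arrays too (4.01 to 4.43), inside the range of the others (3.92 to 6.49, median 5.75). These values are from the brightest of its 3 kept probe sets, and the cortex difference did not pass the threshold.

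**Figure D5:**
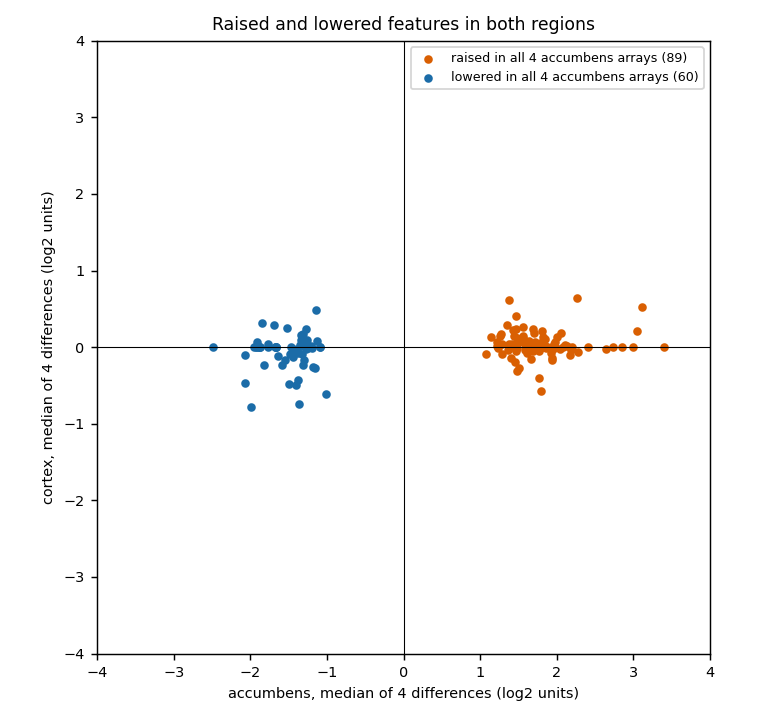
Median log2 difference of the 4 strains from the other 23 in accumbens (horizontal) and cortex (vertical), one point for each of the 89 raised and 60 lowered features. The points spread along the horizontal axis, on which they were chosen, and lie close to 0 on the vertical one. Of these features, 8 raised and 2 lowered were under the floor applied to dim values on all 27 cortex arrays. Their vertical value is 0 through the floor alone.

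Arrays just outside the set showed some of the raised genes. Each of the 23 was set against the median of the other 22 strains among them. SWR/J had 33 of the 89 raised features at least 1 log2 unit up (median over the 89, 0.89) and I/LnJ 29 (median 0.83), whereas the median array had 1. These 2 arrays were the nearest of the 23 for 37 and 31 of the raised features. In the lowered set I/LnJ was nearest for 22 of 60 and NZW/LacJ for 10, but no array had more than 4 features 1 unit down, and the lowest median over the set was -0.48, in I/LnJ. So SWR/J and I/LnJ carried part of the raised pattern. On the lowered set I/LnJ ranked 5 from the lowest, next after the 4 arrays, and SWR/J ranked 7, with a median of -0.26. The 4 arrays were taken for low striatal genes, and the lowered set was defined against these 23. The choice thus limited how far any of the 23 could be lowered, and nothing is read from the small size of their lowering.

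Among the 23 arrays each marker was set against Rgs9. These are the arrays that remained once the 4 lowest in striatal genes had been taken, so the choice cut the range of Rgs9, and the median Slc17a6 value (3.78) was under log2 5, where a level is a bound. Pearson's r was 0.07 for Zic1 (p = 0.745, adjusted p = 0.745, Spearman's rho 0.06, p = 0.801), -0.38 for Lhx6 (p = 0.0681, adjusted p = 0.111, rho -0.17, p = 0.436) and -0.38 for Slc17a6 (p = 0.0741, adjusted p = 0.111, rho -0.18, p = 0.412), by two-sided permutation tests adjusted over 3 relations. None passed 0.05. With values under log2 5 set to 5, Slc17a6 gave r = -0.52 (permutation p = 0.0133, adjusted p = 0.04) and rho = -0.45 (adjusted p = 0.0871). Without I/LnJ and NZW/LacJ, the 2 arrays farthest from the median of Rgs9, r was 0.16, -0.25 and -0.19.

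Measures of array quality overlapped between the 4 arrays and the 23. The actin probe sets for the 3' and 5' ends differed by 1.79 to 1.94 log2 units in the 4 arrays and by 1.68 to 2.35 in the 23, and those of Gapdh by -0.32 to -0.07 and by -0.35 to 0.17. The median intensity over probe sets, on the linear scale and not in log2, was 9.72 to 10.13 in the 4 and 9.66 to 10.08 in the 23. BALB/cByJ, at 10.13, was just above the 23 by this measure.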

How the data were processed

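Affymetrix arrays of prefrontal cortex and nucleus accumbens were used, 1 per strain and region. The values deposited by the authors are linear intensity values, 1 per probe set. Per the submitters' processing notes they were made with GCRMA (no version given there), which corrects background, normalizes and summarises probes. Of 45015 probe sets, 64 controls were left out; 34880 had 1 gene symbol, 923 several and 9148 none. No pseudocount was added before log2.

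Probe sets that exceeded log2 5 on 4 or more of the 54 paired arrays were kept, a gene was given its brightest one, and unnamed probe sets stayed as features of their own (9246 named and 2140 unnamed). Cortex was tested, 4 strains against 23, by lmFit and eBayes of limma 3.58.1 (R 4.3.3), with Benjamini-Hochberg adjustment over all features. Relations used 100000 permutations. The rest was done in Python 3.11.15 with scipy 1.17.1, pandas 2.3.3 and numpy 2.4.6, and drawn with matplotlib 3.10.9. The criterion and the limma fit were tested on simulated data.

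The strains, markers and gene lists were chosen with earlier results of these data known. Named genes were the 15 per direction with the largest smallest-of-4 difference, the 3 markers, and up to 4 per list by size with up to 2 against it; others were picked after their values were seen. Alternatives were other filters, floors, folds and normalizations, every probe set, leaving out arrays, and accumbens minus the same strain's cortex. No sequence or coordinate was used.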

Additional observations from a re-analysis of the deposited data

Results flagged for a closer look

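In 210 groups of 4 values (105 genes in 2 regions), 23 had an array whose gap to the nearest of the other 3 was large for the group's range, a rule that chance meets in about 1 of 20 groups. Groups with all 4 values at or under log2 5 have no range and could not be flagged, so fewer than 210 were open to the rule. Values under log2 5 were set to 5 first, so a lone value just above 5 can be picked out by this rule. In accumbens, BALB/cByJ stood above the other 3 arrays in Lhx6 (8.82, next 7.71), Shh (8.28, next 7.24), Tcf7l2 (6.36, next 5.39), Sfxn1 (9.32, next 8.92) and Igfbp2 (5.36, others at 5). It stood below them in Lamp5 (6.13, next 8.49), Dclk3 (6.84, next 7.84) and Grasp (5, next 6.33). WSB/EiJ was the lowest in Baiap3 (8.85, next 9.77) and AW551984 (7.69, next 8.71). CE/J was the lowest in Gad1 (12.33, next 12.52), and NON/LtJ the highest in Egr2 (6.38, others at 5).

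In cortex, BALB/cByJ was the highest in Zic1 (8.54, next 7.52), Nr2f2 (5.63, next 5.06), Slc32a1 (7.95, next 7.62), Dclk3 (6.97, next 5.92) and Slc6a11 (5.05, others at 5). WSB/EiJ was the lowest in Resp18 (7.18, next 8.86) and Rasd2 (5.74, next 6.95), and the highest in Lhx6 (5.15, others at 5) and Tmem255a (5.14, others at 5). NON/LtJ was the highest in Cd24a (5.30, others at 5) and Pcp4l1 (5.28, others at 5).

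For Egr1 and Grasp all 4 accumbens arrays lay below the median of the other strains and all 4 cortex arrays above it. The median difference was -0.99 log2 units in accumbens and 0.49 in cortex for Egr1, and -1.52 and 0.25 for Grasp. The difference between regions was not tested.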

How the results depend on the processing

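Without 1 of the 4 arrays, 89 to 165 features were raised and 63 to 146 lowered, the highest counts coming without WSB/EiJ; leaving an array out can only add features. A 1.5-fold criterion gave 242 raised and 294 lowered, and no overlap with the 23 gave 460 and 502. After quantile normalization again, 90 and 51 were called, 88 and 49 of them shared with the main call; after centring, 86 and 62, with 86 and 58 shared. In cortex, limma called 0 to 2 features when 1 of the 4 strains was left out and 3 with no filter on dim probe sets, where 28253 probe sets were tested; the other alternatives called 0. Set to log2 5 where dimmer, Slc17a6 correlated with Rgs9 in the 23 arrays at r = -0.52 (permutation adjusted p = 0.04, rho -0.45, adjusted p = 0.0871), past the threshold that it missed without the floor; over the alternatives r ran from -0.19 (2 arrays left out) to -0.52. Of 114 list medians recomputed over 19 lists, 105 moved by less than the spread and 9 by more, among them septum (0.63) at 1.64 and subcortical glutamatergic genes (0.33) at 1.31 with no floor. In a paired form chosen after the data were seen, with strain as replicate block (each accumbens value minus that strain's own cortex value), the criterion gave 84 raised and 55 lowered features, of which 72 and 34 were shared with the main call; like that call, it is a description without a test. Levels under log2 5 are bounds, and with 1 pool per strain, strain and dissected piece cannot be told apart from accumbens alone.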

Other observations

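Raised genes outside the lists, picked here after their values were seen, included 3 potassium channels of the fast Kv3 family. Besides Kcnc2, Kcnc1 read 9.59 in BALB/cByJ, 8.87 in CE/J, 8.89 in NON/LtJ and 8.81 in WSB/EiJ (others 6.53 to 8.25), and Kcnc4 7.83, 6.60, 6.85 and 6.08 (others 4.03 to 6.15). Nefh, the heavy neurofilament subunit of large axons, read 9.56, 8.62, 8.58 and 8.47 (others 5.90 to 8.27), and Hapln4, a link protein of the matrix around neurons, 8.00, 7.07, 6.21 and 6.79 (others 4.09 to 6.12). WSB/EiJ overlapped the others in Kcnc4 alone. In the cortex arrays of the 4 strains Kcnc1 read 8.75 to 9.19, Kcnc4 7.14 to 7.46, Nefh 7.97 to 8.22 and Hapln4 7.19 to 7.77.

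Cadps2, which acts in dense-core vesicle release, read 8.11, 8.37, 7.87 and 6.26 (others 3.01 to 6.61), and Car10, a carbonic anhydrase relative, 8.16, 7.54, 7.74 and 6.03 (others 3.70 to 6.57), so that WSB/EiJ lay inside the others' range in both. Tacr3, the neurokinin 3 receptor, read 7.77, 7.08, 7.90 and 7.08 (others 3.18 to 7.16) and was under log2 5 in the cortex arrays of all 4 strains (2.98 to 3.24). Magel2, an imprinted gene, read 6.91, 7.21, 7.02 and 6.23 (others 4.38 to 6.04), also with cortex under log2 5 (3.08 to 3.85). Among lowered genes outside the lists, Foxo1, a transcription factor, read 6.43, 7.32, 7.67 and 7.72 (others 8.25 to 9.20). Ano3, of the anoctamin family, read 4.04, 4.06, 6.68 and 6.63 (others 5.56 to 8.87), low in BALB/cByJ and CE/J and inside the others' range in NON/LtJ and WSB/EiJ.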
